A study of Arabidopsis thaliana with 6 samples.

Results

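Fasciclin-like arabinogalactan proteins (FLAs) were followed through the tissues of the Arabidopsis inflorescence stem, using 10 of the 21 annotated FLA genes among the 37051 genes counted. The 10 genes were FLA1, FLA2, FLA7, FLA8, FLA9, FLA11, FLA12, FLA13, FLA16 and FLA17, with FLA11 and FLA12 taken as the known fibre genes. All 10 passed the count filter of every comparison. RNA-seq was performed on tissue cut by laser capture microdissection (LCM), in which cells are excised from sections under a microscope. Wild-type Col-0 plants were grown on soil, first in short and then in long days, and the second internode was frozen and sectioned. The phloem cap (S32 and S33) and the pith (S34 and S35) were cut out first, and the vascular bundle libraries (S30 and S31) came from what then remained of the bundle and are called the bundle libraries. There were 2 libraries per tissue and 6 in all, made from RNA amplified in successive rounds. Nothing states that both libraries of a tissue came from separate plants, so p-values measure only the spread between these libraries, which may be technical.

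FLAs are secreted cell wall glycoproteins. They carry fasciclin domains, which are known from adhesion proteins of other organisms, and stretches decorated with arabinogalactan sugars, and many are held at the plasma membrane by a lipid (GPI) anchor. In stems the family is known above all from FLA11 and FLA12, which are active where fibres and vessels lay down secondary walls and whose joint loss alters stem strength and wall cellulose. Members are commonly placed in sub-groups A to D by domain arrangement. FLA7, FLA9, FLA11, FLA12 and FLA13 belong to sub-group A, FLA16 and FLA17 to B, and FLA1, FLA2 and FLA8 to C.

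The region before the FLA11 gene is shown beside those of FLA12 and FLA2, because each of these 3 genes was the most abundant member in at least 1 library. The sequences are the 300 bases before the annotated start in TAIR10.1, whose chromosome sequences are those of TAIR10, from RefSeq, read 5′ to 3′ on the strand of the gene. Those of FLA11 (chr5:753658-753957), FLA12 (chr5:24326828-24327127) and FLA2 (chr4:7493081-7493380) all lie on the minus strand. Capitals mark the secondary wall MYB-responsive element (SMRE) and, in FLA11 only, the tracheary-element-regulating cis-element (TERE).
FLA11: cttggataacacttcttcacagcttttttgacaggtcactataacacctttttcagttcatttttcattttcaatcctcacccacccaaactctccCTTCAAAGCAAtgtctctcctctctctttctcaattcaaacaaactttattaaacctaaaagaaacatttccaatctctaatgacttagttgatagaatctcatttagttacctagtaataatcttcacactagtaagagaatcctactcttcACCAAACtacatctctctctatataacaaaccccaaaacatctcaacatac
FLA12: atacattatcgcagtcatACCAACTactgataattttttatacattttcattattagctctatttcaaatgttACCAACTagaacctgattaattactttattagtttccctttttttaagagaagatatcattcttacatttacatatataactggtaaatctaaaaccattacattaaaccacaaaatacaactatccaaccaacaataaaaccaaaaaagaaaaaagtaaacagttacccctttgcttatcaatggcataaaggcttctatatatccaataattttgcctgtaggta
FLA2: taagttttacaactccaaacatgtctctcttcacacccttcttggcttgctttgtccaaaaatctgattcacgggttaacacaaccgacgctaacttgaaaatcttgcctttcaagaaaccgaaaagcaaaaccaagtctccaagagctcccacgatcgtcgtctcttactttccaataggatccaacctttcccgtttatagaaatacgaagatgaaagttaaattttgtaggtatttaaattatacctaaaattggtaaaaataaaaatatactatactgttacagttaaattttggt

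The SMRE was searched as ACCAAAT or ACCAACT or ACCAAAC or ACCAACC or ACCTAAT or ACCTACT or ACCTAAC or ACCTACC on both strands and occurred in 33.9% of 27443 windows of the same length before protein-coding genes. FLA11 held 1 match (ACCAAAC) and FLA12 held 2 (ACCAACT in both). FLA7 and FLA9 held 1 each and FLA13 held 2, so that all 5 members from sub-group A had a match, whereas FLA1, FLA2, FLA8, FLA16 and FLA17 had 0. The matches of FLA9 and 1 of those of FLA13 read ACCAACC, which is also an AC element (ACCTACC or ACCAACC or ACCTAAC, a subset of the SMRE letters, found in 7.16% of windows). The TERE, CTTNAAAGCNA, was found in 0.43% of windows and among the members only before FLA11, as CTTCAAAGCAA. It overlapped a match to the secondary wall NAC binding element (SNBE), which was present in 48.7% of windows. FLA1, FLA9 and FLA16 held 1 SNBE match each and FLA2 held 3, a pair of which were the same bases on opposite strands. These matches describe the letters in these windows and no binding was measured.

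The coordinates of the genes follow the same annotation. FLA11 (AT5G03170) lies at chr5:752750-753657, FLA12 (AT5G60490) at chr5:24325457-24326827, FLA13 (AT5G44130) at chr5:17760865-17762089, FLA9 (AT1G03870) at chr1:982381-983544 and FLA7 (AT2G04780) at chr2:1676717-1678455. FLA16 (AT2G35860) lies at chr2:15059763-15062122 and FLA17 (AT5G06390) at chr5:1952505-1955796. FLA1 (AT5G55730) lies at chr5:22558044-22560541, FLA2 (AT4G12730) at chr4:7491227-7493080 and FLA8 (AT2G45470) at chr2:18742477-18744322. Only FLA1, FLA16 and FLA17 have bases outside their annotated exons among the 10. The coding sequences of FLA11 and FLA12 were 58.8% identical over 733 aligned positions. Among the 10 members and FLA10, the closest pairs were FLA8 with FLA10 (83.1%), FLA9 with FLA13 (78.2%) and FLA16 with FLA17 (72.9%). Of the 1797 windows of 50 bases, the read length, in the exons of FLA8, 4 occur elsewhere in the genome, and the other members had 0. FLA11 shares 56 bases with AT5G03160 on the other strand, and FLA16 shares 1338 bases with AT2G35859. The counting ignored strand and left out reads that hit more than 1 gene, so reads from the shared bases are missing from both genes. For FLA16 this is 1338 of 2360 bases, and its levels, ranks and shares by TPM, which use the full length, are therefore uncertain.

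The libraries held 19324189 to 22571632 counts. Normalized counts (CPM, relative to library size), with library sizes scaled by the TMM method, are used to compare 1 gene across tissues, and 3 counts, the limit that a count of 0 allows, equalled 0.126 to 0.165 CPM. This limit covers counting error only. TPM values, relative to gene length and library size, for which the authors took gene length with introns and which are kept here, are used to compare genes. Fibre, phloem cap and pith markers were highest in the tissues of these names or, for fibres, in the bundle. Both fibre markers, NST1 and NST3, summed to 124 to 127 CPM in the vascular bundle, 17.1 to 46.6 CPM in phloem cap tissue and 8.28 to 8.85 CPM in the pith. The 2 phloem cap markers summed to 2154 to 2521 CPM in phloem cap tissue and 689 to 899 CPM in the vascular bundle, and the 2 pith markers to 62.6 to 174 CPM in the pith and at most 2.22 CPM elsewhere. Other markers were less separated. The 3 phloem markers summed to 1225 to 1792 CPM in the phloem cap libraries and 750 to 1114 CPM in the bundle libraries, and the 3 cambium markers to 675 to 1028 and 440 to 606 CPM. In the pith the cambium sum was 536 to 574 CPM, nearly all of it PXY, and the 2 chlorenchyma markers summed to at least 1961 CPM in every library. The starch sheath marker SCR was highest in the pith, at 19.9 and 26.9 CPM against 3.42 to 10.6 CPM elsewhere. The 3 epidermis markers summed to 29.5 and 36.4 CPM in the bundle, nearly all of it ATML1, and at most 7.66 CPM elsewhere. Of these, LTP1 was highest in the phloem cap by mean. The phloem cap libraries differed most from each other, with 13.3% of 10830 genes with a mean of at least 10 CPM over 2-fold apart, compared with 2.88% in the vascular bundle and 11.5% in the pith.

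Per unit of length, FLA11 and FLA12 were the most abundant members in all vascular bundle and phloem cap libraries, and FLA2 was the most abundant in both pith libraries. FLA11 reached 2911 (S30) and 3673 (S31) TPM in the bundle, which placed it 23rd and 17th among all genes. FLA12 reached 2129 and 4082 TPM, so the order of the pair differed between both bundle libraries. In the pith FLA11 had 105 and 122 TPM, FLA12 had 189 and 181 TPM, and FLA2 had 1635 (S34) and 1886 (S35) TPM, ranks 72 and 51 among all genes. At the other end, FLA17 ranked 9 of the 10 in every library, at 8.46 to 20.8 TPM. FLA9 was the lowest in the bundle and the phloem cap, and FLA1 the lowest in the pith.

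**Figure D1:**
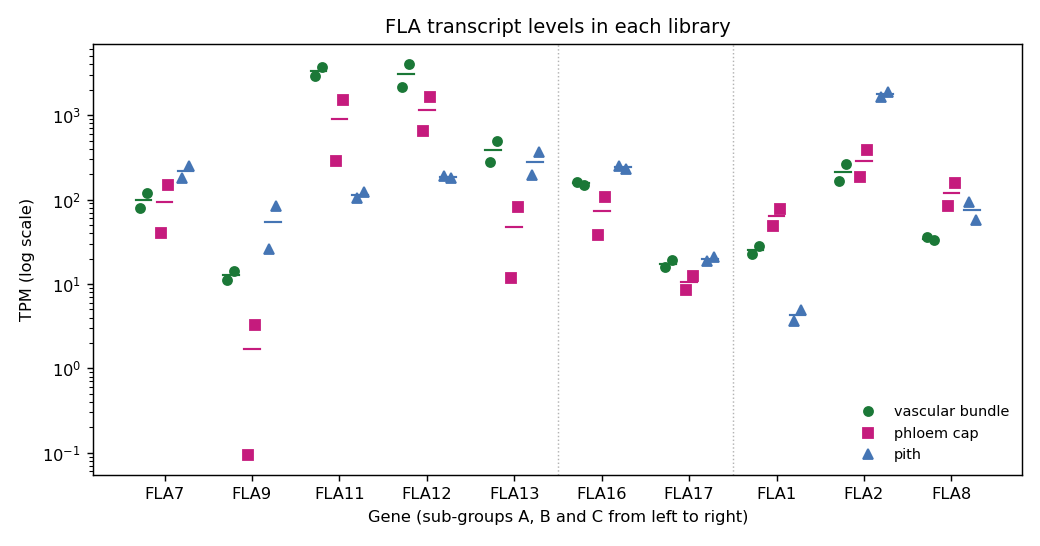
TPM (log axis) of the 10 FLA genes in each library, with circles for the bundle, squares for the phloem cap and triangles for the pith, short lines for the mean of 2 libraries and dotted lines between sub-groups. FLA11 and FLA12 are at 2129 to 4082 TPM in the bundle and at 105 to 189 TPM in the pith, where FLA2 is at 1635 and 1886 TPM.

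The make-up of the family changed accordingly. FLA11 and FLA12 together made up 83.3% and 85.1% of the summed TPM of the 21 FLA genes in the bundle, 63.8% and 73.0% in phloem cap tissue, and 9.35% and 8.17% in the pith. FLA2 made up 2.76% and 2.87% in the bundle, 12.3% and 8.82% in phloem cap tissue, and 52.0% and 50.9% in the pith. The shares of the tissues did not overlap for either. The family total itself was 6052 and 9117 TPM in the bundle, 1478 and 4361 TPM in phloem cap tissue, and 3145 and 3709 TPM in the pith. The 10 members accounted for 85.8% to 97.3% of it.

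**Figure D2:**
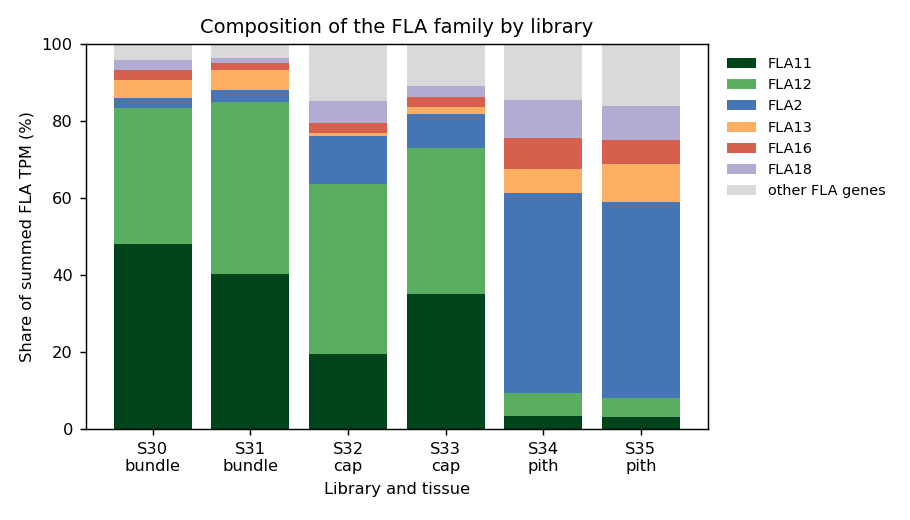
Share of the summed TPM of the 21 FLA genes (%) held by FLA11, FLA12, FLA2, FLA13, FLA16, FLA18 and the remaining FLA genes, 1 bar per library. FLA11 and FLA12 fill 83.3% and 85.1% of the bars of the bundle, and FLA2 fills 52.0% and 50.9% of those of the pith.

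The pith was first compared with the vascular bundle, asking which FLA genes differ between soft ground tissue and the tissue that contains fibres and vessels. Of the 10 members, FLA11, FLA12 and FLA1 were lower and FLA2 was higher in the pith, where a call required a fold change above 2 and a p-value, adjusted over all genes by the Benjamini-Hochberg method, below 0.01 in the quasi-likelihood test of edgeR. Across the 18063 genes tested, 10.5% were called lower and 5.44% higher. In bulk tissue, fewer cells of a type and less RNA per cell cannot be told apart.

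FLA11 had 1276 (S30) and 1517 (S31) CPM in the bundle and 50.6 (S34) and 57.2 (S35) CPM in the pith. Its level in the pith was 26.0-fold lower (log2 fold change −4.70, SE 0.26, adjusted p = 0.000255). FLA12 had 1409 and 2546 CPM in the bundle against 137 and 129 CPM in the pith. This was a 14.9-fold lower level (log2 fold change −3.90, SE 0.35, adjusted p = 0.000543). For both genes, each bundle library was far above each pith library, although FLA12 varied more between the bundle libraries than FLA11 did. Both genes kept a measurable level in the pith, where FLA12 ranked 4 and 5 and FLA11 6 of the 10 members by TPM. The pith libraries also held 8.28 to 8.85 CPM of the fibre markers and 101 to 133 CPM of the 4 xylem vessel markers, of which VND7 was at 0 counts in both, and the part of such cells in these levels was not tested.

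FLA1, which is known from callus and shoot development, had 27.4 and 32.3 CPM in the bundle and 4.78 and 6.27 CPM in the pith. Its level in the pith was 5.40-fold lower (log2 fold change −2.43, SE 0.30, adjusted p = 0.00173). Without the bundle library S31 the log2 fold change was −2.29 and no longer passed (adjusted p = 0.0129). FLA1 was thus lower in the pith together with FLA11 and FLA12, but its level in the bundle was far below theirs, at 22.7 and 28.4 TPM.

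FLA2, of the same sub-group as FLA1, showed the opposite pattern. It had 149 and 221 CPM in the bundle against 1602 and 1813 CPM in the pith, a 9.21-fold higher level (log2 fold change 3.20, SE 0.28, adjusted p = 0.000526). FLA2 was called whichever of the 4 libraries was left out, with log2 fold changes of 2.99 to 3.53.

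The other 6 members did not pass. FLA7 (67.0 and 95.1 CPM in the bundle, 166 and 226 CPM in the pith), FLA8 (32 and 27.6 against 90.7 and 55.4 CPM) and FLA9 (6.22 and 7.51 against 16.0 and 50.03 CPM) had each pith library above each bundle library. Their log2 fold changes were 1.27 (SE 0.28, adjusted p = 0.0145), 1.29 (SE 0.30, adjusted p = 0.0180) and 2.26 (SE 0.53, adjusted p = 0.0185). DESeq2's Wald test, the test of the study, called these 3 genes higher in addition to FLA2, as well as the same 3 lower. It called 8.34% of the genes it tested higher and 13.9% lower. FLA16, whose loss is known to affect stem growth, had 184 and 160 CPM against 314 and 282 CPM (log2 fold change 0.79, SE 0.22, adjusted p = 0.0337). FLA17 had 25.2 and 28.5 CPM against 32.8 and 35.5 CPM (log2 fold change 0.35, SE 0.24, adjusted p = 0.325). FLA13 was the only member whose libraries overlapped between both tissues, with 166 and 274 CPM against 126 and 234 CPM (log2 fold change −0.29, SE 0.37, adjusted p = 0.597). In all, 6 members were higher and 3 lower in both pith libraries than in both bundle libraries. Of all genes tested, 32.2% were higher and 37.6% lower in this way.

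**Figure D3:**
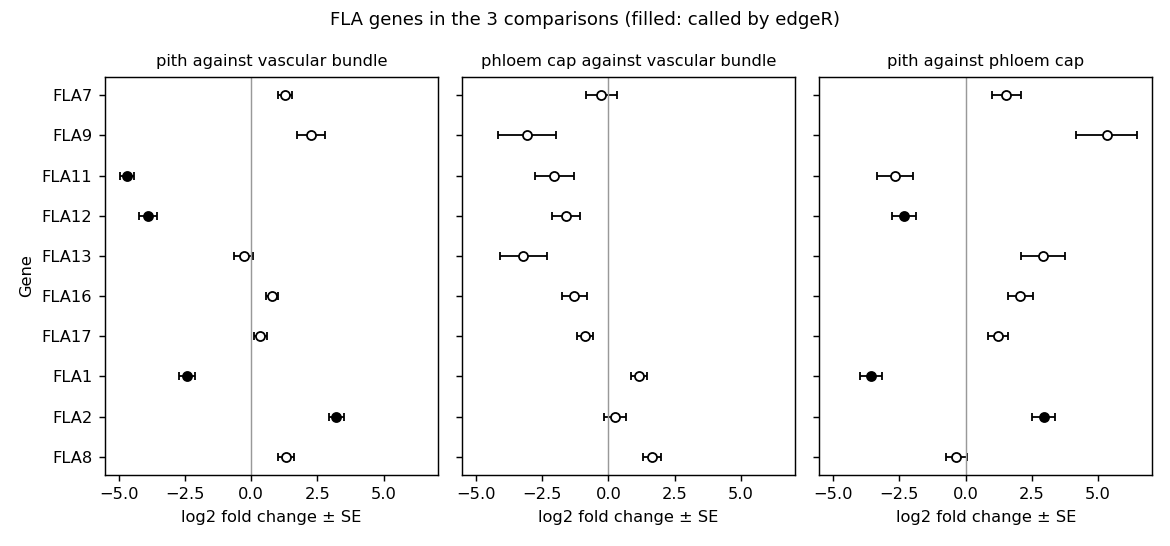
log2 fold change with its SE for the 10 FLA genes in the 3 pairwise comparisons of tissues (2 libraries each), with filled points for genes called by edgeR. FLA11 (−4.70), FLA12 (−3.90) and FLA1 (−2.43) are called lower and FLA2 (3.20) higher in the pith against the bundle, and 0 points are filled for the phloem cap set against the bundle.

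The phloem cap was next compared with the vascular bundle. EdgeR called 0 of the 10 members, as it did 0.0% of the 18528 genes tested (smallest adjusted p = 0.0486). At an unadjusted p-value below 0.05 there were 8 members and 20.9% of all genes. DESeq2 called FLA8 higher (adjusted p = 0.000465) and FLA13 lower (adjusted p = 0.000154), with 2.87% of genes called higher and 3.9% lower. The phloem cap is a strand of cells on the outer side of the phloem, so this comparison sets 2 neighbouring parts of the bundle against each other.

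All 10 members were higher in the phloem cap library S33 than in S32, compared with 49.6% of the genes with a mean of at least 10 CPM. For 6 members the libraries were over 2-fold apart. FLA11 had 116 (S32) and 567 (S33) CPM in the phloem cap, both below the 1276 and 1517 CPM of the bundle (log2 fold change −2.04, SE 0.73, adjusted p = 0.191). FLA12 had 397 and 926 CPM, against 1409 and 2546 CPM (log2 fold change −1.59, SE 0.53, adjusted p = 0.159). Several marker lists also differed between both libraries. Fibre markers summed to 17.1 CPM in S32 and 46.6 CPM in S33, and xylem vessel markers to 52.5 and 133 CPM, compared with 2384 to 2548 CPM in the bundle. Both fibre markers and the vessel markers VND6, XCP1 and XCP2 were higher in S33. VND7 was at 0 counts in S32 and too low in S33 to tell the libraries apart (phloem cap mean 0.0419 CPM). All 5 genes for cellulose synthesis in secondary walls were 2.497 to 5.13 times higher in S33. Those for primary walls were also higher there, all 5 of them, by 1.23 to 1.84 times. The phloem cap sum was 2154 CPM in S32 and 2521 CPM in S33, and the pith sum was 0.771 and 2.22 CPM. The starch sheath marker was at 3.42 and 5.37 CPM, and the epidermis sum was 7.66 and 5.12 CPM. Both chlorenchyma markers were 1.85 and 1.66 times higher in S33, whereas the phloem sum was 1792 CPM in S32 and 1225 CPM in S33 and the cambium sum was 1028 and 675 CPM. The part of any of these cells in the levels of the 10 members was not tested. Without S33 the log2 fold changes of FLA11 and FLA12 were −3.61 and −2.34, and without S32 they were −1.31 and −1.10.

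FLA13 had 6.31 and 41.2 CPM in the phloem cap, against 166 and 274 CPM in the bundle (log2 fold change −3.21, SE 0.90, adjusted p = 0.122). FLA9, known in Arabidopsis and maize from seed abortion under stress and close to FLA13 in sequence, was represented by 1 count in S32 and 37 counts in S33, against 131 and 176 counts in the bundle (log2 fold change −3.07, SE 1.09, adjusted p = 0.192). These were the 2 members with the lowest fitted ratios in the phloem cap. Without S33 their log2 fold changes were −5.14 and −7.01, although the value of FLA9 then rests on the single count in S32. Without S32 they were −2.42 and −2.15. FLA16 had 40.0 and 102 CPM, and FLA17 12.3 and 16.9 CPM, which for each gene was below both bundle libraries (log2 fold changes −1.28, SE 0.46, adjusted p = 0.189, and −0.89, SE 0.29, adjusted p = 0.146).

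FLA8 and FLA1 had the reverse order. FLA8 had 68.9 and 118 CPM in the phloem cap against 32 and 27.6 CPM in the bundle (log2 fold change 1.64, SE 0.34, adjusted p = 0.0674). FLA1 had 53.5 and 79.3 CPM against 27.4 and 32.3 CPM (log2 fold change 1.14, SE 0.30, adjusted p = 0.0920). Libraries of both tissues overlapped for FLA2, with 150 and 291 CPM in the phloem cap (log2 fold change 0.24, SE 0.41, adjusted p = 0.792), and for FLA7, with 31.2 and 105 CPM (log2 fold change −0.26, SE 0.57, adjusted p = 0.842). In all, 2 members were higher and 6 lower in both phloem cap libraries than in both bundle libraries, while 27.1% of all genes were higher and 26.7% lower in this way.

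Comparing the pith with the phloem cap, edgeR called FLA1 and FLA12 lower and FLA2 higher in the pith, where 8.33% of the 18201 genes were called lower and 4.34% higher. This comparison uses the same libraries as the others and is not independent of them. FLA1 was 12.0-fold lower (log2 fold change −3.58, SE 0.41, adjusted p = 0.000675), with 4.78 and 6.27 CPM in the pith against 53.5 and 79.3 CPM in the phloem cap. FLA1 was therefore highest in the phloem cap by mean and lowest in the pith. FLA12 was 4.97-fold lower (log2 fold change −2.31, SE 0.45, adjusted p = 0.00704), but without the pith library S34 or S35 the adjusted p-value was 0.0415 or 0.0440. Without S33 the log2 fold change of FLA12 was −1.56. FLA2 was 7.76-fold higher in pith tissue (log2 fold change 2.96, SE 0.43, adjusted p = 0.00189).

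FLA11 was below the threshold of edgeR (log2 fold change −2.66, SE 0.69, adjusted p = 0.0274), but was called lower by DESeq2 (adjusted p = 0.000194). Its log2 fold change was −1.09 without S33 and −3.37 without S32. With a lone phloem cap library the fit takes its spread from the pith alone, so only the sizes are given. DESeq2 called 12.6% of genes lower and 7.35% higher. FLA9 had 0.0482 and 1.55 CPM in phloem cap tissue and 16.0 and 50.03 CPM in pith tissue (log2 fold change 5.33, SE 1.156, adjusted p = 0.0144). FLA16 (log2 fold change 2.07, SE 0.47, adjusted p = 0.0134) and FLA13 (2.92, SE 0.82, adjusted p = 0.0358) were also above the phloem cap in both pith libraries. In this way 6 members were higher and 3 lower without overlap, while 30.1% of all genes tested were higher and 34.8% lower. An edgeR fit over all 6 libraries called FLA9 (adjusted p = 0.00872) and FLA16 (adjusted p = 0.00918) higher together with FLA2, when 5.84% of genes were called higher. DESeq2 called FLA2, FLA13 and FLA16. The values for FLA17 (1.23, SE 0.37, adjusted p = 0.0407), FLA7 (1.53, SE 0.55, adjusted p = 0.0772) and FLA8 (−0.36, SE 0.40, adjusted p = 0.576) did not pass in either test.

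The order of the tissues therefore differed among the members. EdgeR called 0 of all genes between the bundle and the phloem cap, so a step between them that did not pass cannot tell members apart. By mean CPM, FLA11 and FLA12 went from the bundle through the phloem cap to the pith, where the step from the bundle to the phloem cap did not pass for either gene and the step to the pith passed in edgeR for FLA12 only. FLA1 went from the phloem cap through the bundle to the pith, with the last step passing. FLA2 and FLA7 were highest in the pith, with the phloem cap and the bundle overlapping. Both comparisons with the pith passed in edgeR for FLA2, and neither passed for FLA7. FLA9, FLA16 and FLA17 went from the pith through the bundle to the phloem cap, with neither step passing in edgeR. FLA13 was highest in the bundle and FLA8 in the phloem cap, in each case with the pith next and not distinguishable from the highest. The median log2 fold change of the 10 members was 0.57 in the pith and −1.09 in the phloem cap set against the bundle, while that of all genes tested was −0.04 and 0.04.

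Of the other 11 FLA genes, FLA5, FLA6 and FLA21 had 0 counts in every library, and FLA20 had 1 count in all. FLA3 and FLA14, both known from pollen, were also listed at 0, but FLA14 shares all of its 768 bases with AT3G12670 and FLA3 shares 1148 of 1190 bases with AT2G24440. Reads that hit more than 1 gene were not counted, so the levels of FLA3 and FLA14 cannot be read from these counts. FLA10, close to FLA8 in sequence, had 19 counts or fewer per library. In the pith against the bundle, where 5.44% of all genes were called higher and 10.5% lower, 4 of the 11 were tested. Of these, 1 was called higher and 0 lower. This was FLA18, of the same sub-group as FLA16 and FLA17, with 207 and 170 CPM in the bundle, 105 and 154 CPM in phloem cap tissue and 478 and 480 CPM in the pith. Its log2 fold change was 1.34 (SE 0.23, adjusted p = 0.00518) against the bundle and 1.89 (SE 0.36, adjusted p = 0.00598) against the phloem cap. The first of these calls was not made in the fit over 6 libraries. FLA15 had 14.5 and 42.1 CPM in phloem cap tissue and 119 and 172 CPM in pith tissue (log2 fold change 2.37, SE 0.53, adjusted p = 0.0139). It was not called by edgeR on 4 libraries, but was called higher over 6 libraries (adjusted p = 0.00984) and by DESeq2 (adjusted p = 0.000105). FLA4, which acts in root cell expansion in a pathway with the receptor kinases FEI1 and FEI2, had 17.0 and 18.2 CPM in the bundle and 31.9 and 41.0 CPM in the pith, and was not called by edgeR (log2 fold change 1.05, SE 0.26, adjusted p = 0.0228) but was called higher by DESeq2 (adjusted p = 0.00416). FEI1 was called higher in the pith than in the bundle (log2 fold change 1.40, SE 0.22, adjusted p = 0.00388), and FEI2 was not (0.28, SE 0.26, adjusted p = 0.455).

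Genes for cellulose synthesis were set beside the FLAs. All 5 of the secondary wall list, which holds the cellulose synthases CESA4, CESA7 and CESA8, the COBRA-like protein COBL4 and the chitinase-like protein CTL2, were called lower in the pith than in the bundle, and their log2 fold changes had a median of −5.23. Of all genes tested, 10.5% were called lower. CESA4 had 1777 and 1981 CPM in the bundle, 140 and 349 CPM in phloem cap tissue and 55.6 and 37.4 CPM in the pith. Its log2 fold change in the pith against the bundle was −5.34 (SE 0.32, adjusted p = 0.000255), CTL2 had −5.21 and COBL4 had −4.47. In the phloem cap, 0 of the 5 were called against the bundle by edgeR (5 at an unadjusted p-value below 0.05) and 4 were called lower by DESeq2. The shares of all genes were 20.9% at this unadjusted p-value and 3.9% called lower by DESeq2. In the primary wall list, 4 of 5 were called higher in the pith than in the bundle (median 1.86, with 5.44% of all genes called higher). Against the phloem cap 5 of 5 were called higher (median 2.35, with 4.34% of all genes called higher). The 4 were CESA1, CESA3, CESA6 and COB, with the chitinase-like CTL1 added in the second comparison. COB, a GPI-anchored protein that orients cellulose deposition, had 130 and 143 CPM in the bundle and 826 and 1110 CPM in pith tissue (log2 fold change 2.82, SE 0.26, adjusted p = 0.000554). Among the called members, FLA11, FLA12 and FLA1 went in the direction of the secondary wall list in the pith against the bundle. FLA2 went in that of the primary wall list. Of the 10 members, 6 had positive log2 fold changes there, FLA2 among them. In the phloem cap set against the bundle, FLA1 (log2 fold change 1.14) went the other way from the secondary wall list (median −2.87). A shared direction does not place a gene with either list.

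The ratio of FLA11 to CESA4 by TPM was 4.22 and 4.50 in the bundle, 4.88 and 9.52 in phloem cap tissue and 5.35 and 8.99 in the pith. The ratio of FLA12 to CESA4 was 3.09 and 5.001 in the bundle, 11.0 and 10.3 in phloem cap tissue and 9.57 and 13.4 in the pith. Both ratios to CESA4 were higher in each library of the phloem cap and the pith than in either bundle library. For FLA11 the margin was small in S32 (4.88, against 4.50 in S31). Ratios to other genes of the secondary wall list were not calculated. COBL4, of the same list, fell less than FLA11 in the pith against the bundle, by log2 fold change. FLA12 exceeded FLA11 by TPM 2.26 and 1.08 times in phloem cap tissue and 1.79 and 1.49 times in the pith, whereas the ratio was 0.731 and 1.11 in the bundle.

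**Figure D4:**
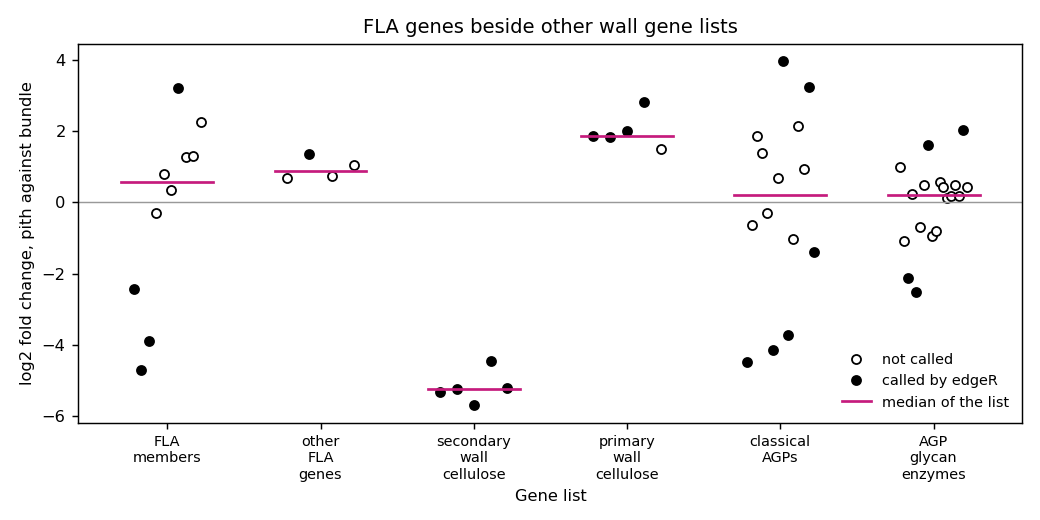
log2 fold change in the pith against the bundle for each gene tested in 6 lists, with filled points for genes called by edgeR and a line at the median of each list. The secondary wall cellulose genes lie around a median of −5.23 and the primary wall genes around 1.86, while the FLA members extend from −4.70 to 3.20.

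Among 16 classical and lysine-rich arabinogalactan proteins (AGPs), 14 were tested in the pith against the bundle, of which 2 were called higher and 4 lower. Across all genes tested, 5.44% were called higher and 10.5% lower. AGP26 rose from 1.19 and 2.30 CPM in the bundle to 31.8 and 23.1 CPM in pith tissue (log2 fold change 3.96, SE 0.43, adjusted p = 0.00106), and AGP7 from 10.8 and 19.6 to 146 and 142 CPM (3.24, SE 0.34, adjusted p = 0.000930). AGP9, the most abundant AGP of this list, was lower in the pith, with 752 and 986 against 318 and 343 CPM (log2 fold change −1.40, SE 0.24, adjusted p = 0.00564). AGP1 (−4.49), AGP19 (−4.13) and AGP27 (−3.74) were also called lower. In the pith against the phloem cap, AGP26 was called higher and AGP1 and AGP27 lower, beside 4.34% and 8.33% of all genes. EdgeR called 0 of the 14 in the phloem cap set against the bundle (7 at an unadjusted p-value below 0.05, beside 20.9% of all genes). DESeq2, which called 2.87% of genes higher, called AGP6 and AGP11 higher. Both are known from pollen and were singled out after their values were seen. AGP6 had 94.8 and 23.02 CPM in phloem cap tissue and at most 8.33 CPM elsewhere, and AGP11 had 93.3 and 29.8 CPM and at most 8.03 CPM elsewhere.

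Of the enzymes that prepare the glycans of these proteins, 2 were called higher and 2 lower in the pith against the bundle. The shares of all genes tested were 5.44% and 10.5%, and counts this small do not set the list apart. Of 21 genes for prolyl hydroxylation and arabinogalactan glycosylation 18 were tested, and the median of their log2 fold changes was 0.21 in the pith against the bundle. The prolyl hydroxylase P4H5 (log2 fold change 2.04, SE 0.31, adjusted p = 0.00356) and the galactosyltransferase GALT6 (1.61, SE 0.25, adjusted p = 0.00412) were called higher. The galactosyltransferases GALT31A (−2.51, SE 0.42, adjusted p = 0.00507) and GALT29A (−2.13, SE 0.33, adjusted p = 0.00372), which extend side chains, were called lower. GALT29A had 41.4 and 53.4 CPM in the bundle and 8.36 and 13.4 CPM in the pith. P4H5 was also called higher than in the phloem cap (2.53, SE 0.37, adjusted p = 0.00199), and 0 were called between the phloem cap and the bundle by edgeR or DESeq2 (1 at an unadjusted p-value below 0.05 in edgeR). Of all genes, 20.9% were below this unadjusted p-value, and DESeq2 called 2.87% higher and 3.9% lower.

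Profiles over the 6 libraries were compared by the Euclidean distance of log2(CPM + 1), centred on the mean of each gene, among 10830 genes with a mean of at least 10 CPM. The genes nearest to FLA11 were AT4G26580 (distance 0.40), IRX6, another name of COBL4 (0.43), the purine permease PUP1 (0.49), IRX12, the laccase LAC4 of lignin formation (0.66), and GLP10, a germin-like protein (0.67). The genes nearest to FLA12 were arpc2b, of the actin-nucleating ARP2/3 complex (0.52), AT2G40120 (0.54), AT5G67620 (0.68), ATCAD4, a cinnamyl alcohol dehydrogenase of monolignol synthesis (0.71), and AT3G44220 (0.72). FLA12 ranked 85th for FLA11, and FLA11 ranked 97th for FLA12 (distance 1.29). Next among the members came FLA1, at rank 948 for FLA11 and 852 for FLA12, and FLA17 at rank 6475 and 7138. With log2(CPM + 10), 1 of the 5 genes nearest to FLA11 and 0 of those nearest to FLA12 were the same. For FLA2, added after its values were seen, the nearest genes were IQD1, ERD3, AGP26, AT1G53070 and COB. All of these distances rest on 6 libraries from 3 tissues and are a description.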

How the data were processed

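RNA-seq counts from 6 LCM libraries (2 per tissue) were analysed. The authors mapped untrimmed single-end reads of 50 bases to TAIR10 with STAR 2.5.0a, kept unique alignments, and deposited raw counts per Araport11 gene, with introns included and strand ignored. Groups were taken from the sample labels. Total counts were 19324189 to 22571632 per library. RNA was amplified, so reads are not independent molecules.

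R 4.3.3 with edgeR 4.0.16 was used on the 4 libraries of each comparison (filterByExpr, TMM, glmQLFit with robust estimation, glmQLFTest). A call required a fold change above 2 and an adjusted p (Benjamini-Hochberg) below 0.01, as in the study. The SE was calculated back from the F statistic and is not independent of the p-value. TPM used gene length with introns. DESeq2 1.42.0 was the main alternative. The others were DESeq2 size factors, library totals, 2 other count filters, a fit over 6 libraries, an adjusted p of 0.05, each library left out, summed exon length and log2(CPM + 10). Fits with 3 libraries assume that the lone library varies like the other tissue. The tests were tested on simulated data. Python 3.11.15 read the annotation and sequences of TAIR10.1, in which all 37051 identifiers were found.

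The members, lists and tests were chosen with earlier results of these data known. All 10 members are named, and from each list up to 4 genes with the highest mean CPM or any gene called by edgeR could be named. Protein sequences and the nuclei-based libraries were not used here.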

Additional observations from a re-analysis of the deposited data

How the results depend on the processing

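With 2 libraries per tissue, counts of called members depended on the test and on single libraries. In the pith against the vascular bundle, 1 member was called higher, but 4 with DESeq2, 3 with no count filter and 4 at an adjusted p of 0.05, and the count was 1 to 3 with a library left out. The 3 members called lower became 2 to 3 with a library left out. In the phloem cap set against the bundle, DESeq2 called 1 higher and 1 lower instead of 0, and leaving out a library gave 0 to 2 higher and 0 to 5 lower, the 5 without S33. In the pith against the phloem cap, 1 member was called higher, but 3 with DESeq2, 2 with no count filter, 3 with the fit over 6 libraries and 5 at an adjusted p of 0.05, with a range of 1 to 5 when a library was left out (5 without S33). The 2 called lower became 1 to 3 when a library was left out (1 without S34 or S35, 3 without S32). The share of all genes called was not determined with a library left out, with no count filter or at an adjusted p of 0.05. The counts under those settings therefore describe the members only. With a library left out, the spread came from the other tissue alone, so those counts do not reflect the spread of the tissue with a lone library. The causes were not tested.

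Directions reversed only for values that were not called. FLA13 in the pith against the vascular bundle (−0.29) became 0.13 without S31 and 0.09 without S34 (range −0.80 to 0.13). In the phloem cap set against the bundle, FLA2 (0.24) became −0.04 without S30 and −0.33 without S33 (range −0.33 to 0.64), and FLA7 (−0.26) became 0.01 without S31 and 0.36 without S32 (range −1.40 to 0.36). FLA8 in the pith against the phloem cap (−0.36) became 0.11 without S33 (range −0.74 to 0.11). Library totals moved the median of all genes by −0.21, 0.14 and −0.34 in the 3 comparisons, and reversed 0 members. With summed exon length, 7 of 30 mean TPM levels moved by more than 1 SD. No paired analysis was possible because the labels give no replicate number shared by the tissues.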
